A study of Homo sapiens with 28 samples.

Results

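The genes described here are 40 factors that build ribosomes without being core proteins of the small nucleolar RNA particles (snoRNPs). They were selected by a list of gene symbols. All 40 were listed in each of the 3 deposited expression tables, out of 13897 genes listed in any table, and all 40 passed the filter on low values in each. By their known roles, 15 act in assembly of the small (40S) ribosomal subunit, 20 in assembly of the large (60S) subunit, and 5 are nucleolar scaffold proteins or factors of other steps.

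RNA was sequenced from NCI-H2009 and NCI-H596, established human lines of non-small-cell lung cancer, both wild type for genotype in the labels and both labelled adenocarcinoma. Cells were reverse transfected with an siRNA against RUVBL1 (siBL1) or a non-targeting siRNA (siNT) and harvested after 2.5 days (H2009) or 3 days (H596). In a separate experiment both lines received 100 nM of compound B or compound C for 24 h or were left untreated; the compounds are known here only by these names, the design text calls compound B an inhibitor of RUVBL1, and what vehicle the untreated cells received is not given. Each of the 10 groups had 2 libraries. The labels do not say whether these were grown separately. A p-value therefore reflects the spread between the 2 libraries of a group, pooled over the groups of a fit, and that spread may be technical.

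A ribosome is built in the nucleolus, where a long precursor RNA is transcribed, folded, modified and cut while assembly factors bind and leave in order. Early factors of the small subunit form a large particle around the U3 RNA, the small subunit processome, and late factors escort the precursor to the cytoplasm. The factors of the large subunit include RNA helicases of the DEAD-box family (DDX), GTPases of the GNL family, and the PeBoW complex of PES1, BOP1 and WDR12. Most of these factors are essential in dividing cells, and many are among the known targets of the transcription factor MYC, which binds the sequence CACGTG, called the E-box. RUVBL1 and RUVBL2 are partner AAA+ ATPases that act as chaperones, and one of their known tasks is to help assemble snoRNPs.

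Promoters were examined because so many of these genes share that known regulator. RefSeq's promoter table (GRCh38.p14, 250 bases before to 50 bases after the gene start) held 33 of the 40 genes; RRP12, BOP1, RRP1B, RRS1, DDX18, NOLC1 and POP1 had no entry. The letters CACGTG, which read the same on both strands, stood in 13 of these 33 promoters (39.4%), with the first entry taken for each gene. The shares that follow count every promoter entry, so a gene can enter more than once. The motif stood in 7.26% of all 35116 promoters of the table and in 8.34% of the 22199 promoters of protein-coding genes. It stood in 9.27% of the 13802 promoters of genes tested in the compound table. In 10 of the 13 genes it began downstream of the gene start. The windows of 30 bases around the motif are shown for 6 genes whose RNA is described below, with the motif in capitals and coordinates of GRCh38.p14:
PNO1, chr2:68157885-68157914, plus strand: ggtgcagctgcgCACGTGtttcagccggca
IMP4, chr2:130342900-130342929, plus strand: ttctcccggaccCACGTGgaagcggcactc
RRP9, chr3:51941892-51941921, minus strand: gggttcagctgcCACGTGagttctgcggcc
NOP14, chr4:2963374-2963403, minus strand: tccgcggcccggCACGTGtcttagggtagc
PES1, chr22:30591880-30591909, minus strand: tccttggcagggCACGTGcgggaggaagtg
UTP20, chr12:101280083-101280112, plus strand: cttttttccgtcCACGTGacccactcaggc
In these windows the motif began 10, 16, 16 and 14 bases into the gene in PNO1, IMP4, NOP14 and PES1, and -5 and -10 bases from the start in RRP9 and UTP20. The flanking bases differed between the genes, and the motif itself was the shared part.

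IMP4 held the motif at 2 places, the upstream one at position -203 from its start. Its 250 bases of upstream sequence are shown in full with that copy in capitals, beside those of NPM1, which had the lowest change with compound B, and UTP3, which had the highest; the last 2 hold no CACGTG in the window searched:
IMP4, chr2:130342647-130342896, plus strand: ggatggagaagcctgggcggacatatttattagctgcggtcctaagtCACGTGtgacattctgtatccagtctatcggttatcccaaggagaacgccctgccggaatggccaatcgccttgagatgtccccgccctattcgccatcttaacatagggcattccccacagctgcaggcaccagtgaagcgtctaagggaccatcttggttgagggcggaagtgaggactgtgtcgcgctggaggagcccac
NPM1, chr5:171387599-171387848, plus strand: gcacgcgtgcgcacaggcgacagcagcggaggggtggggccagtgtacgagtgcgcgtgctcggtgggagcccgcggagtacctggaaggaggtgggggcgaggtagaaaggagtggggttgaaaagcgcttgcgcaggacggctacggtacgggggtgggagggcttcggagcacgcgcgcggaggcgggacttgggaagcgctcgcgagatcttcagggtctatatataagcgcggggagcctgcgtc
UTP3, chr4:70688282-70688531, plus strand: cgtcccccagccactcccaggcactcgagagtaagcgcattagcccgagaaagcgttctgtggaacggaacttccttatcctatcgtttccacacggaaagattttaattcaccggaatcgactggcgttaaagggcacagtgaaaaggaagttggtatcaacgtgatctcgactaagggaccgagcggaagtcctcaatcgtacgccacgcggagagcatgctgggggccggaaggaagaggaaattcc
The changes described below can be split by these letters. With compound B in H2009 the median log2 change was -0.65 over the 13 genes with the motif and -0.58 over the 20 without it. With siBL1 in H2009 the medians were -0.31 and -0.12, with compound B in H596 -0.52 and -0.40 (-0.21 and -0.24 without untreated replicate 2), and with siBL1 in H596 -0.22 and -0.23. These are descriptions of the letters in the window, without a test, and do not show binding.

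The labels were checked first on RUVBL1. In H2009 it lay at 1.75 and 1.11 FPKM (fragments scaled by transcript length and by the mapped fragments of the library) with siBL1 and at 87.8 and 64.3 FPKM with siNT; in H596 it lay at 2.26 and 2.52 FPKM against 111.9 and 123.4 FPKM. The log2 changes were -4.98 (SE 0.34, n = 2) and -5.13 (SE 0.22, n = 2), although limma's adjusted p without the replicate number was 0.56 and 0.158, and with it as a block 1.9e-07 and 2.2e-08. RUVBL2 differed by 0.07 (SE 0.29) and -0.23 (SE 0.29). With compound B, RUVBL1 itself differed by -0.39 (SE 0.29, adjusted p = 0.448 by limma) in H2009 and by -0.47 (SE 0.29, adjusted p = 1) in H596.

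The tables hold FPKM without counts, so the depth behind a value is unknown; the sum of FPKM per library ranged from 398195 to 749060. All 10 epithelial markers examined were at a mean of at least 1 FPKM in both lines, while CD68 was the only leukocyte marker of 5 at that level. Of 4 lung alveolar lineage markers, only NKX2-1 was at that level in H2009, and none was in H596. In H596 all 5 squamous markers (TP63, KRT5, KRT6A, KRT14 and SOX2) were at that level, which does not match the adenocarcinoma label. In H2009 only SOX2 of these was. No endothelial marker of 4 was at that level except CDH5 in the H596 siRNA table. Fibroblast markers reached it for 4 of 5 in that table, with a summed level of 8.21 to 11.3 FPKM. COL1A1, a fibroblast marker, also reached it in H2009 in the compound experiment. Lineage and epithelial markers moved as well. With compound B in H2009, NKX2-1 (-1.83), SOX2 (-1.69) and ELF3 (-1.27) were called lower by limma, and in H596 the 5 squamous markers had a median of -0.41 (KRT14 -0.86, called with the replicate block). With siBL1, markers called only with that block included SOX2 (-1.33), KRT19 (-0.70) and NKX2-1 (-0.59) in H2009. In H596 they included KRT5 (-0.98), KRT6A (-0.89), KRT14 (-0.67), KRT8 (-0.65) and KRT18 (-0.62). The other squamous markers there, TP63 (0.00) and SOX2 (0.05), were called in neither fit. Some epithelial markers rose instead and were called higher with that block. These were CDH3 (0.36), CLDN4 (0.20) and ELF3 (0.14) with siBL1 in H596, and CDH1 (0.61) with compound B in H2009. The part of all these markers in the results below was not tested.

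Replicates also differed in the genes described here. In replicate 2 of untreated H596 their median level was 44.7 FPKM against 31.5 FPKM in replicate 1, with 36 of 40 higher and a median log2 difference of 0.41, while the median of all genes tested was 9.74 and 10.9 FPKM. With compound C in H596 36 of 40 were also higher in replicate 2, by a median of 0.23. With siBL1 in H2009 replicate 2 differed by a median of -0.52, where the median over all genes was -0.40. For compound B and compound C in H596, summary values are given with and without untreated replicate 2.

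As a group the 40 genes were expressed well above the typical gene. In untreated H2009 their median was 56.8 and 54.4 FPKM in replicates 1 and 2, against 9.67 and 8.62 FPKM over all 12781 genes tested. NPM1 (nucleophosmin, an abundant nucleolar chaperone) was at 2362 and 2513 FPKM and NCL (nucleolin, a nucleolar RNA-binding protein) at 942 and 1171 FPKM. At the other end POP1, the largest protein subunit of RNase MRP and RNase P, was at 11.6 and 8.65 FPKM. FPKM is scaled by transcript length, so these levels can be ordered between genes.

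In H2009 most of the set was lower with compound B. Of the 40 genes, 36 lay below their untreated level. The median log2 change was -0.61 against -0.01 over all 12781 genes tested (-0.48 against -0.01 with quantile normalization). By limma with Benjamini-Hochberg adjustment at 0.05, 7 fell (NPM1, RRS1, IMP4, POP1, NOB1, RRP9 and GNL3) and 0 rose; over all genes tested, 5.02% were called lower and 6.36% called higher. Within replicate pairs, 34 of the 40 were lower in both, against 40.9% of all genes, and in 30 both treated libraries lay below both untreated ones, against 28.1% of all genes. FPKM is relative to the RNA of the whole library, and less RNA per cell cannot be told apart here from fewer cells that express a gene.

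Adding the replicate number to the model as a block gave 26 of the 40 lower and 1 higher (background 19.5% and 18.8% of all genes), and with a block for each line 28 lower and 1 higher (22.4% and 22.2%). All 7 genes called without the block remained among the 26 and the 28. When any 1 of the 4 libraries of this contrast was left out, the 7 calls dropped to between 0 and 2, with IMP4 and NOB1 kept when untreated replicate 2 was left out; fitted on the 6 H2009 libraries alone, 0 remained.

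**Figure D1:**
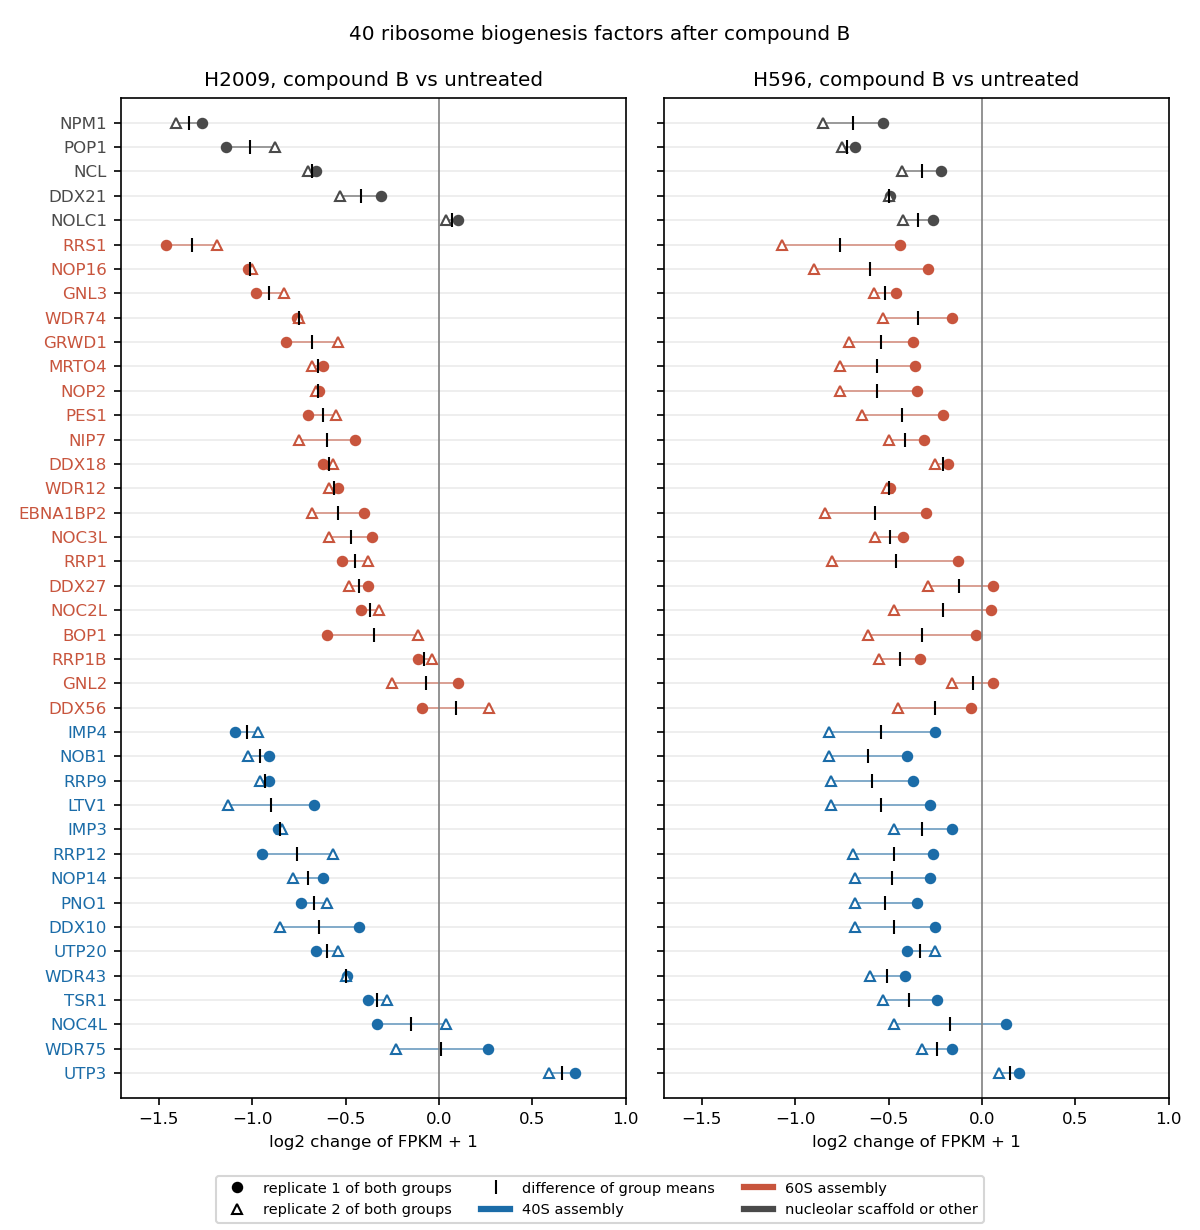
Log2 change of FPKM + 1 of each of the 40 genes with compound B, in H2009 (left) and H596 (right); circles and triangles are the difference within replicate 1 and replicate 2, the vertical tick is the difference of group means, and colours give the role. In H2009 36 of 40 ticks lie left of 0 and in H596 39 of 40, with UTP3 the highest in both lines; without untreated replicate 2, 32 of 40 lie below 0 in H596.

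Among the nucleolar scaffold proteins, NPM1 fell furthest. Its level was 975 and 945 FPKM with compound B in H2009 and 2362 and 2513 FPKM in untreated cells, so the groups lay far apart. The log2 change was -1.34 (SE 0.30, adjusted p = 0.0219 by limma), and reads of NPM1 are uncertain because its many processed pseudogenes can share them. With quantile normalization the change of NPM1 was -0.75 and no longer passed. NCL was at 594 and 722 FPKM against 942 and 1171 FPKM, a change of -0.68 (SE 0.30, adjusted p = 0.187, and 0.0201 with the replicate block). POP1 was at 4.70 and 4.25 FPKM against 11.6 and 8.65 FPKM, a change of -1.01 (SE 0.26, adjusted p = 0.0338).

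NOLC1, a chaperone of nucleolar RNA particles, stood outside this pattern. It was at 176.3 and 172.5 FPKM under compound B, and the untreated libraries were at 164.2 and 167.4 FPKM, so both treated libraries were slightly higher. The change was 0.07 (SE 0.21, 95% interval -0.39 to 0.54). DDX21, a nucleolar helicase, lay between these with -0.42 (SE 0.34, adjusted p = 0.495).

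Of the 15 factors of the small subunit, 3 fell with compound B in H2009 and 11 fell with the replicate block, with a median change of -0.67. Over all genes tested 5.02% were called lower without the block and 19.5% with it. IMP4, which acts with the U3 RNA in the processome, was at 35.5 and 31.1 FPKM against 76.8 and 62.0 FPKM (-1.03, SE 0.20, adjusted p = 0.0111). NOB1, the nuclease that makes the final cut of the 18S precursor, was at 34.0 and 29.6 FPKM against 64.7 and 60.8 FPKM (-0.96, SE 0.18, adjusted p = 0.00993). RRP9, a protein of the U3 particle, was at 23.2 and 20.5 FPKM against 44.7 and 40.6 FPKM (-0.93, SE 0.19, adjusted p = 0.0155). For these 3 genes both treated libraries lay far below both untreated ones.

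PNO1, the partner of NOB1 in late small-subunit precursors, was at 41.2 and 45.5 FPKM against 69.4 and 69.3 FPKM; its change of -0.67 (SE 0.30) did not pass without the block (adjusted p = 0.191) and did with it (0.012). LTV1, RRP12, NOP14 and IMP3, which act from the processome to nuclear export, had changes of -0.90, -0.76, -0.70 and -0.85, and each passed only with the block. UTP3, another processome protein, lay in the opposite direction. It was at 56.1 and 58.9 FPKM with compound B against 33.5 and 38.8 FPKM untreated, a change of 0.66 (SE 0.28, adjusted p = 0.171, and 0.0202 with the replicate block). DDX10, UTP20 and WDR43 had changes of -0.64, -0.60 and -0.50 and passed only with the block, and TSR1, a late cytoplasmic factor, had -0.33 and did not pass. WDR75 and NOC4L had changes of 0.01 (SE 0.25) and -0.15 (SE 0.51), with replicates of opposite sign.

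Of the 20 factors of the large subunit, 2 fell in H2009 with compound B and 12 with the replicate block, with a median change of -0.58. The shares of all genes called lower in these fits were 5.02% and 19.5%. RRS1, which helps to place the 5S RNA particle, was at 28.2 and 26.7 FPKM against 79.3 and 62.3 FPKM (-1.32, SE 0.30, adjusted p = 0.0227). GNL3 (nucleostemin, a nucleolar GTPase) was at 76.1 and 72.5 FPKM against 150.9 and 130.0 FPKM (-0.91, SE 0.19, adjusted p = 0.0154). NOP16, a large-subunit assembly factor, was at 37.4 and 49.7 FPKM against 76.8 and 100.1 FPKM. Its change of -1.01 was as large as that of POP1, but the spread between libraries was wider (SE 0.42, adjusted p = 0.163 by limma). In H2009 its replicate 2 lay above replicate 1 by 0.40 on the log2 scale with compound B and by 0.38 untreated. All treated libraries of these genes lay below all untreated ones.

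The 3 proteins of the PeBoW complex gave differences of unequal size. PES1 was at 41.3 and 37.5 FPKM against 67.6 and 55.2 FPKM (-0.62, SE 0.19, adjusted p = 0.0688), and WDR12 at 23.7 and 28.2 FPKM against 34.9 and 42.8 FPKM (-0.56, SE 0.25, adjusted p = 0.185). Both passed with the replicate block (0.00823 and 0.0113). BOP1 was at 28.4 and 24.5 FPKM against 43.5 and 26.5 FPKM; its groups overlapped, and the change of -0.35 (SE 0.28) passed in neither fit (0.495 and 0.261). The 3 differences were not tested against each other.

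The paralogs RRP1 and RRP1B also differed in size. RRP1 was at 25.9 and 24.4 FPKM against 37.6 and 32.0 FPKM (-0.45, SE 0.24), and RRP1B at 24.6 and 20.5 FPKM against 26.7 and 21.1 FPKM (-0.08, SE 0.26). Neither passed, with adjusted p of 0.277 and 0.91 by limma, and the difference between the paralogs was not tested. NOP2, a methyltransferase of the 28S RNA, was at 23.6 and 26.3 FPKM against 37.2 and 42.2 FPKM (-0.65, SE 0.26, adjusted p = 0.148, and 0.015 with the block). Of the other large-subunit factors, WDR74, GRWD1, MRTO4, NIP7, DDX18 and NOC3L had changes from -0.75 to -0.47 and passed only with the block. EBNA1BP2, DDX27, NOC2L and GNL2 had -0.54, -0.43, -0.37 and -0.07 and passed neither without a block nor with the replicate block. DDX56, a helicase, had the highest change of the large-subunit factors: 31.8 and 23.5 FPKM against 33.8 and 19.3 FPKM, a change of 0.09 (SE 0.33).

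Compound C was given at the same dose and time, and in H2009 it gave small differences. Of the 40 genes 32 lay below 0, but the median change was -0.08 against 0.01 over all genes, and the range was only -0.24 to 0.11. By limma 0 of the 40 passed, with 0 at an unadjusted p under 0.05 and 0 with either replicate block; of all genes 0.00782% were called lower, and 0.0156% were lower at an unadjusted p under 0.05. NPM1 was at 2067 and 3200 FPKM (0.08, 95% interval -0.60 to 0.76), RRS1 at 79.1 and 45.8 FPKM (-0.22, interval -0.90 to 0.46) and POP1 at 11.6 and 6.81 FPKM (-0.16, interval -0.73 to 0.42). The intervals are wide, and a miss of the threshold does not show that compound C had no effect.

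Set directly against compound C in H2009, compound B had 34 of 40 genes lower. In 33 both replicates were lower and in 3 both were higher, against 39.4% and 36.6% of all genes. The median was -0.54 against -0.02 over all genes (-0.37 against -0.01 with quantile normalization). Here 6 passed as lower: NPM1 (-1.42, SE 0.30, adjusted p = 0.0178), RRS1 (-1.11), IMP4 (-0.96), GNL3 (-0.88), NOB1 (-0.86) and RRP9 (-0.84). Of all genes tested 5.28% were called lower in this contrast and 6.16% higher, with 0 of the 40 higher. The replicate block gave 22 lower and 1 higher, that one UTP3 (0.83, SE 0.28, adjusted p = 0.0874 without the block and 0.00591 with it), where 20.6% and 18.5% of all genes were called lower and higher. POP1 had a difference of -0.86 that did not pass without the block (adjusted p = 0.0612). Leaving out 1 library of the contrast gave between 0 and 4 calls.

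**Figure D2:**
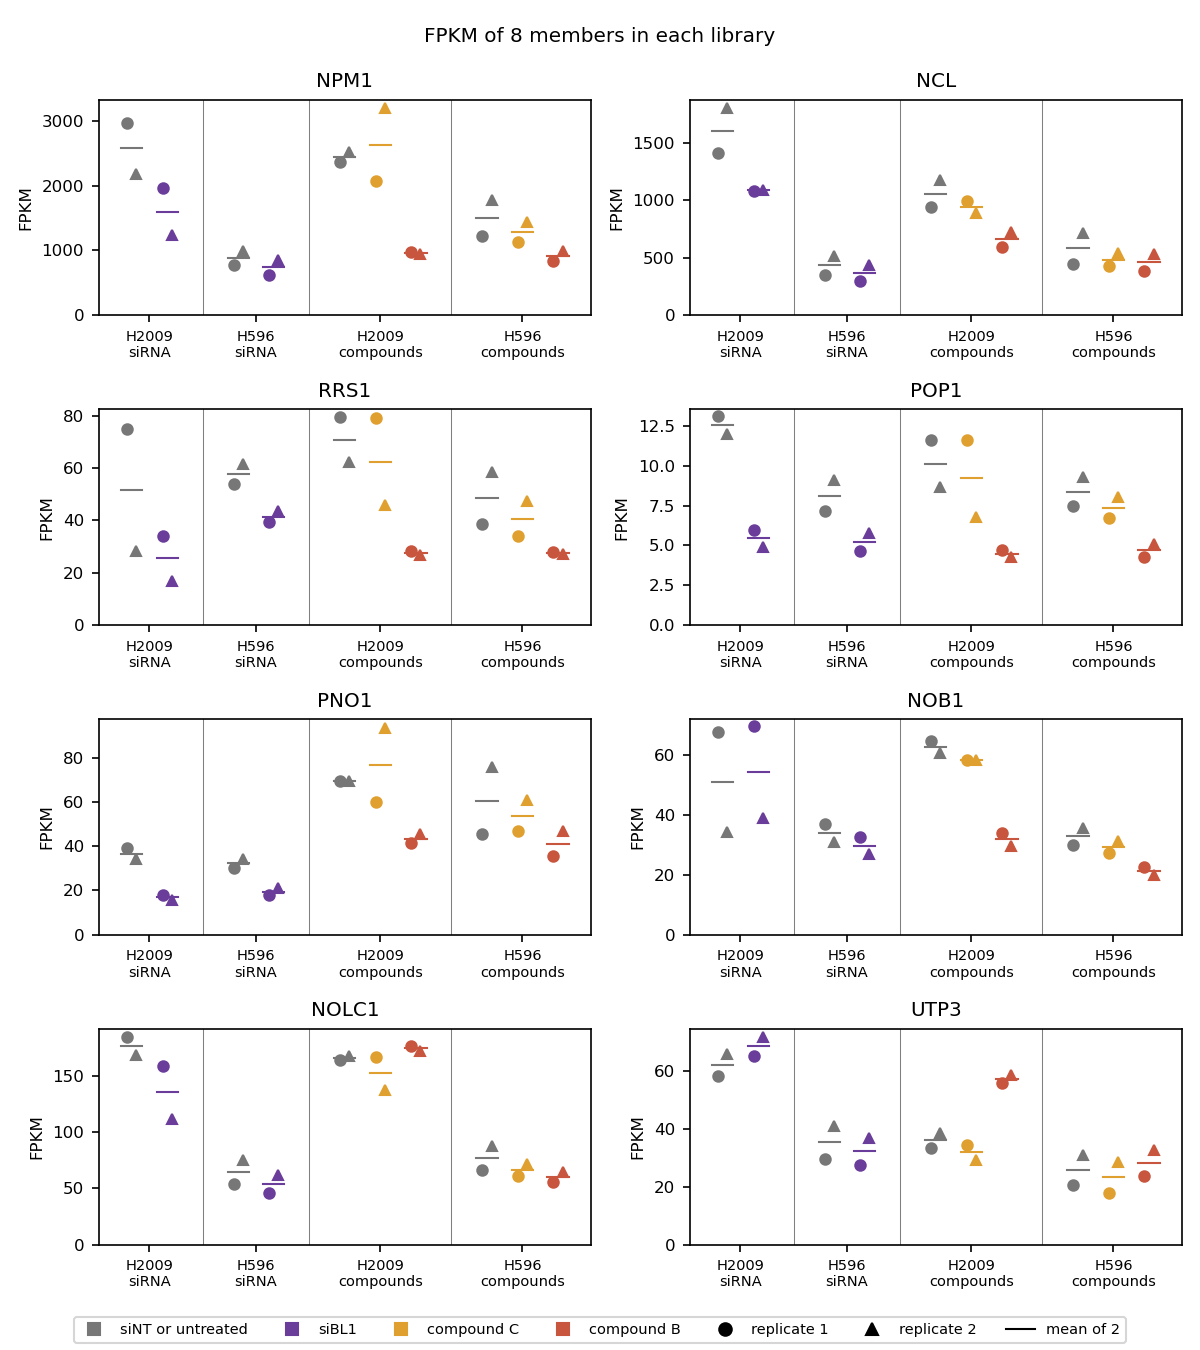
FPKM of 8 of the 40 genes in each of the 20 libraries, by line and experiment; circles are replicate 1, triangles replicate 2, and short lines the mean of 2. In the H2009 compound panels both compound B libraries lie below the compound C and untreated libraries for NPM1, NCL, RRS1, POP1, PNO1 and NOB1, and above them for NOLC1 and UTP3.

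In H596 nearly all of the set lay lower with compound B as well. Of the 40 genes 39 lay below 0, UTP3 being the exception, with a median of -0.47 against -0.03 over all genes. By limma 0 passed (0% of all genes), with 9 at an unadjusted p under 0.05, all lower, where 2.54% of all genes were. With the replicate block 0 passed as well, where 0.767% of all genes were called lower. A block for each line gave 10 lower (POP1, RRP9, NOB1, RRS1, NOP16, GRWD1, NOP2, WDR43, GNL3 and MRTO4), where 2.89% of all genes were. In 35 genes both replicates were lower, against 39.2% of all genes, and in 22 the groups did not overlap, against 15.2%. The size of this depended on untreated replicate 2, in which these genes were high: the median was -0.28 within replicate 1 and -0.59 within replicate 2. Without that library the median was -0.24 and 32 of the 40 lay below 0; 0 had an unadjusted p under 0.05 (1.38% of all genes lower), and the block for each line called 0 of the 40 (0.0548% of all genes lower). In 24 genes both treated libraries lay below the untreated library that was left, against 35.2% of all genes.

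POP1 had similar changes in both replicates: 4.26 and 5.10 FPKM with compound B and 7.45 and 9.29 FPKM untreated in H596, a log2 change of -0.72 (SE 0.26) and within replicates -0.68 and -0.75. RRS1 was at 28.0 and 27.2 FPKM against 38.4 and 58.3 FPKM, with within-replicate changes of -0.44 and -1.07. NPM1 was at 842 and 985 FPKM against 1217 and 1780 FPKM, a change of -0.69 (SE 0.30). NOB1 was at 22.6 and 19.8 FPKM against 30.1 and 35.7 FPKM, and RRP9 at 11.5 and 11.5 FPKM against 15.1 and 20.9 FPKM, with changes of -0.61 and -0.59. Without untreated replicate 2 the changes of POP1, RRS1, NPM1, NOB1 and RRP9 were -0.58, -0.46, -0.42, -0.49 and -0.37. In these 5 genes the treated libraries lay below both untreated ones, and the adjusted p without the block was between 0.487 and 0.855.

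NOP16 was at 23.9 and 36.3 FPKM against 29.5 and 68.9 FPKM, so its groups overlapped; its change was -0.60 with all libraries and 0.00 without untreated replicate 2. NCL was at 385 and 532 FPKM against 448 and 717 FPKM (-0.32, SE 0.30), and NOP2 at 14.9 and 18.3 FPKM against 19.2 and 31.7 FPKM (-0.56, SE 0.26). Of the PeBoW proteins, BOP1 (18.0 and 15.1 against 18.4 and 23.6 FPKM), PES1 (25.7 and 23.0 against 30 and 36.5 FPKM) and WDR12 (18.1 and 22.9 against 25.9 and 33.0 FPKM) differed by -0.32, -0.43 and -0.50, and none passed. RRP1 (25.6 and 21.6 against 28.2 and 38.3 FPKM) and RRP1B (14.0 and 13.8 against 17.9 and 20.7 FPKM), apart in H2009, were near each other here with -0.46 and -0.44. Without untreated replicate 2, NCL and NOP2 had 0.02 and -0.21, BOP1, PES1 and WDR12 had -0.15, -0.29 and -0.33, and RRP1 and RRP1B had -0.25 and -0.34. UTP3 was at 23.9 and 32.9 FPKM against 20.7 and 30.9 FPKM (0.15, SE 0.28), and GNL2, a GTPase of large-subunit export, at 41.2 and 58.8 FPKM against 39.6 and 65.6 FPKM (-0.05, SE 0.32). These became 0.43 for UTP3 and 0.31 for GNL2 without that library.

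Compound C in H596 gave small values of the same sign, with 39 of 40 below 0 and a median of -0.17 against -0.01 over all genes. None of the 40 passed by limma (0 at an unadjusted p under 0.05, where 0.117% of all genes were lower, 0 with either block, and 0% of all genes called lower). This shift rested on untreated replicate 2: without it the median was 0.02 and 15 of 40 lay below 0, and without untreated replicate 1 it was -0.40. Compound B against compound C, which does not use the untreated libraries, gave 38 of 40 lower with a median of -0.27 against -0.01. In that contrast 0 passed by limma (2 lower at an unadjusted p under 0.05, where 1.74% of all genes were, and 0% of all genes called lower), and with a block for each line only POP1 did (-0.56, SE 0.26, adjusted p = 0.0458), where 1.67% of all genes were called lower.

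Whether compound B acted differently in the lines was tested as an interaction. The change in H596 minus that in H2009 had a median of 0.17 over the 40 genes against -0.02 over all genes, and 28 of 40 were above 0. None of the 40 passed by limma, with or without either replicate block, where 0.329% of all genes were called lower and 0.125% higher without a block; 0 had an unadjusted p under 0.05, where 5.16% of all genes were lower and 3.88% higher. The largest differences were 0.65 for NPM1 (95% interval -0.31 to 1.62) and 0.57 for RRS1 (-0.39 to 1.53), and the lowest was -0.51 for UTP3 (-1.39 to 0.37). The sign of the median also depended on 1 library: it was -0.05 without untreated H596 replicate 1 and 0.42 without replicate 2. Across the 40 genes the changes in H2009 and H596 correlated with r = 0.792 (0.508 without untreated H596 replicate 2), a description only, since genes of a library share its composition.

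**Figure D3:**
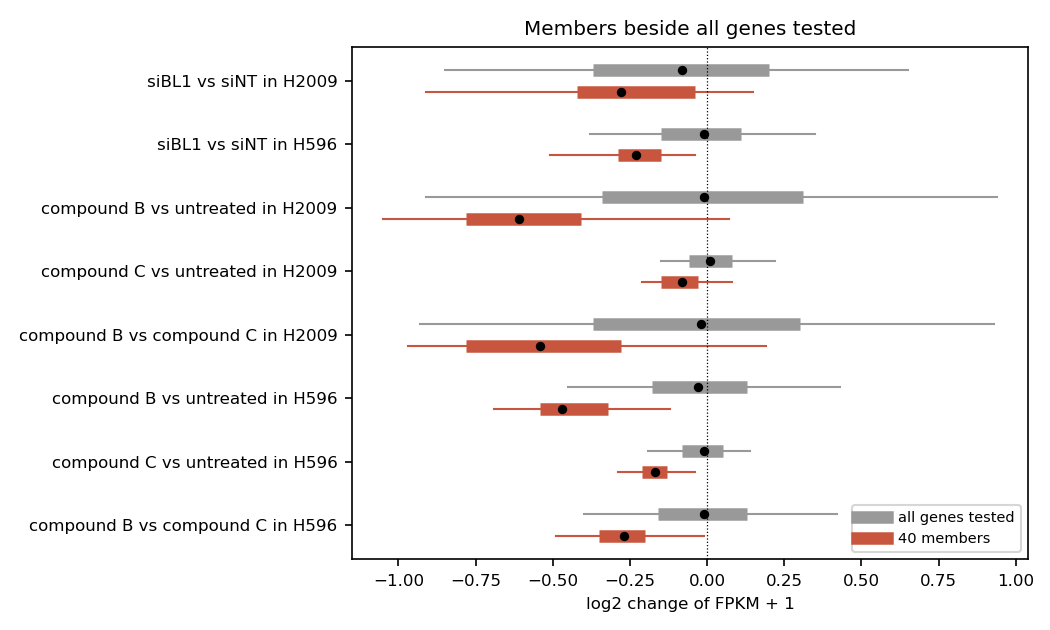
Distribution of log2 changes in 8 contrasts, for all genes tested (grey) and the 40 genes (red); dots are medians, thick bars span the 25th to 75th and thin bars the 5th to 95th percentile. The red medians lie at -0.61 and -0.47 with compound B in H2009 and H596, at -0.28 and -0.23 with siBL1, and at -0.08 and -0.17 with compound C.

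Knockdown of RUVBL1 in H2009 gave lower values in most of the set, and values at or above the control in some. Of the 40 genes 31 lay below 0, with a median of -0.28 against -0.08 over all 11223 genes tested (-0.17 against 0.01 with quantile normalization). By limma 0 passed, as for all genes (0%), with 2 at an unadjusted p under 0.05 (both lower), where 3.10% of all genes were lower and 1.64% higher. The fit with the replicate block called 17 lower and 1 higher, where 27.0% and 15.4% of all genes were called. Of the calls over all genes in that fit 36.4% were higher, and 50.7% with quantile normalization added, under which 27 of the 40 genes lay below 0. In 26 genes both replicates were lower (47.9% of all genes), and in 12 the groups did not overlap (18.9%).

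The lowest were POP1 and PNO1. POP1 was at 5.99 and 4.91 FPKM with siBL1 against 13.1 and 12 FPKM with siNT (-1.08, SE 0.30), and PNO1 at 18.0 and 15.9 FPKM against 39.2 and 34.1 FPKM (-1.07, SE 0.29). Neither passed without the block (adjusted p = 0.967 for both), and with it the adjusted p was 4.5e-04 and 2.8e-04. For both genes the 2 siBL1 libraries lay close together and well below the 2 siNT libraries.

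RRS1 was at 34.1 and 16.9 FPKM against 75 and 28.1 FPKM. It was lower in each replicate, by 1.11 and 0.70 on the log2 scale, but the replicates lay so far apart that the groups overlapped. NPM1 was at 1962 and 1235 FPKM against 2966 and 2185 FPKM (-0.71, SE 0.46), NCL at 1080.0 and 1088 FPKM against 1406 and 1798 FPKM (-0.55, SE 0.38), and NOP2 at 28.1 and 22.1 FPKM against 41.3 and 38.3 FPKM (-0.65, SE 0.30). In these 3 genes the groups did not overlap, and each passed with the block. NOP14 was at 54.8 and 32.7 FPKM against 84.2 and 49.7 FPKM (-0.60, SE 0.44), with nearly the same change in both replicates (-0.61 and -0.59).

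The highest were DDX27 and DDX56. DDX27, a DEAD-box helicase which acts beside the PeBoW complex, was at 116.9 and 77.0 FPKM with siBL1 against 90.5 and 65.4 FPKM (0.30, SE 0.38) and was the one called higher with the block (adjusted p = 0.0428). DDX56 was at 34.7 and 12.4 FPKM against 26.5 and 12.4 FPKM (0.19, SE 0.64). The PeBoW proteins PES1 (49.1 and 26.1 against 58.0 and 42.7 FPKM), WDR12 (30.9 and 31.9 against 39.7 and 44.1 FPKM) and BOP1 (7.58 and 4.57 against 7.84 and 6.88 FPKM) differed by -0.46, -0.40 and -0.27; PES1 and WDR12 passed with the block and BOP1 did not (0.162). RRP1 was at 19.5 and 10.2 FPKM against 17.8 and 12.9 FPKM (-0.09) and RRP1B at 31.9 and 16.6 FPKM against 38.4 and 20.8 FPKM (-0.28).

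In H596 siBL1 was followed by small differences in 1 direction: 39 of 40 genes lay below 0 and LTV1 was at 0.00, with a median of -0.23 against -0.01 over all 12004 genes tested. By limma 0 passed, as for all genes (0%), with 1 at an unadjusted p under 0.05 (lower), where 0.400% of all genes were lower and 0.741% higher, while the replicate block called 32 lower and 0 higher against 26.6% and 19.8% of all genes. In 39 genes both replicates were lower (44.7% of all genes), and in 11 the groups did not overlap (8.64%).

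PNO1 and POP1 were again the lowest. PNO1 was at 17.9 and 20.9 FPKM against 30.2 and 34.3 FPKM (-0.71, SE 0.23, adjusted p = 1 without the block and 8.1e-05 with it), and POP1 at 4.67 and 5.77 FPKM against 7.15 and 9.09 FPKM (-0.55, SE 0.24). RRS1 was at 39.3 and 43.4 FPKM against 53.7 and 61.6 FPKM (-0.47, SE 0.23), and NOP16 at 31.2 and 36.4 FPKM against 38.5 and 51.2 FPKM (-0.39, SE 0.26). In these 4 genes the groups did not overlap.

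Within the PeBoW complex BOP1 was at 33.5 and 18.0 FPKM against 44.4 and 27.9 FPKM (-0.50, SE 0.43), PES1 at 28.3 and 19.2 FPKM against 37.2 and 25.2 FPKM (-0.38, SE 0.34), and WDR12 at 13 and 16.4 FPKM against 15 and 19.1 FPKM (-0.20, SE 0.26). Their groups overlapped because the replicates differed, and all 3 passed with the block. NPM1 (628 and 850 against 768 and 995 FPKM), NCL (293 and 432 against 353 and 515 FPKM) and NOP2 (19.3 and 21.6 against 22.5 and 25 FPKM) differed by -0.26, -0.26 and -0.21, and passed with the block only. RRP1 (31.2 and 30.1 against 34.6 and 39.0 FPKM) and RRP1B (17.1 and 17.1 against 20.7 and 19.7 FPKM) differed by -0.25 and -0.23, and also passed with the block only. The highest were LTV1, at 20.1 and 37.7 FPKM against 19.1 and 39.3 FPKM, and UTP20, at 4.94 and 7.74 FPKM against 5.02 and 7.78 FPKM.

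**Figure D4:**
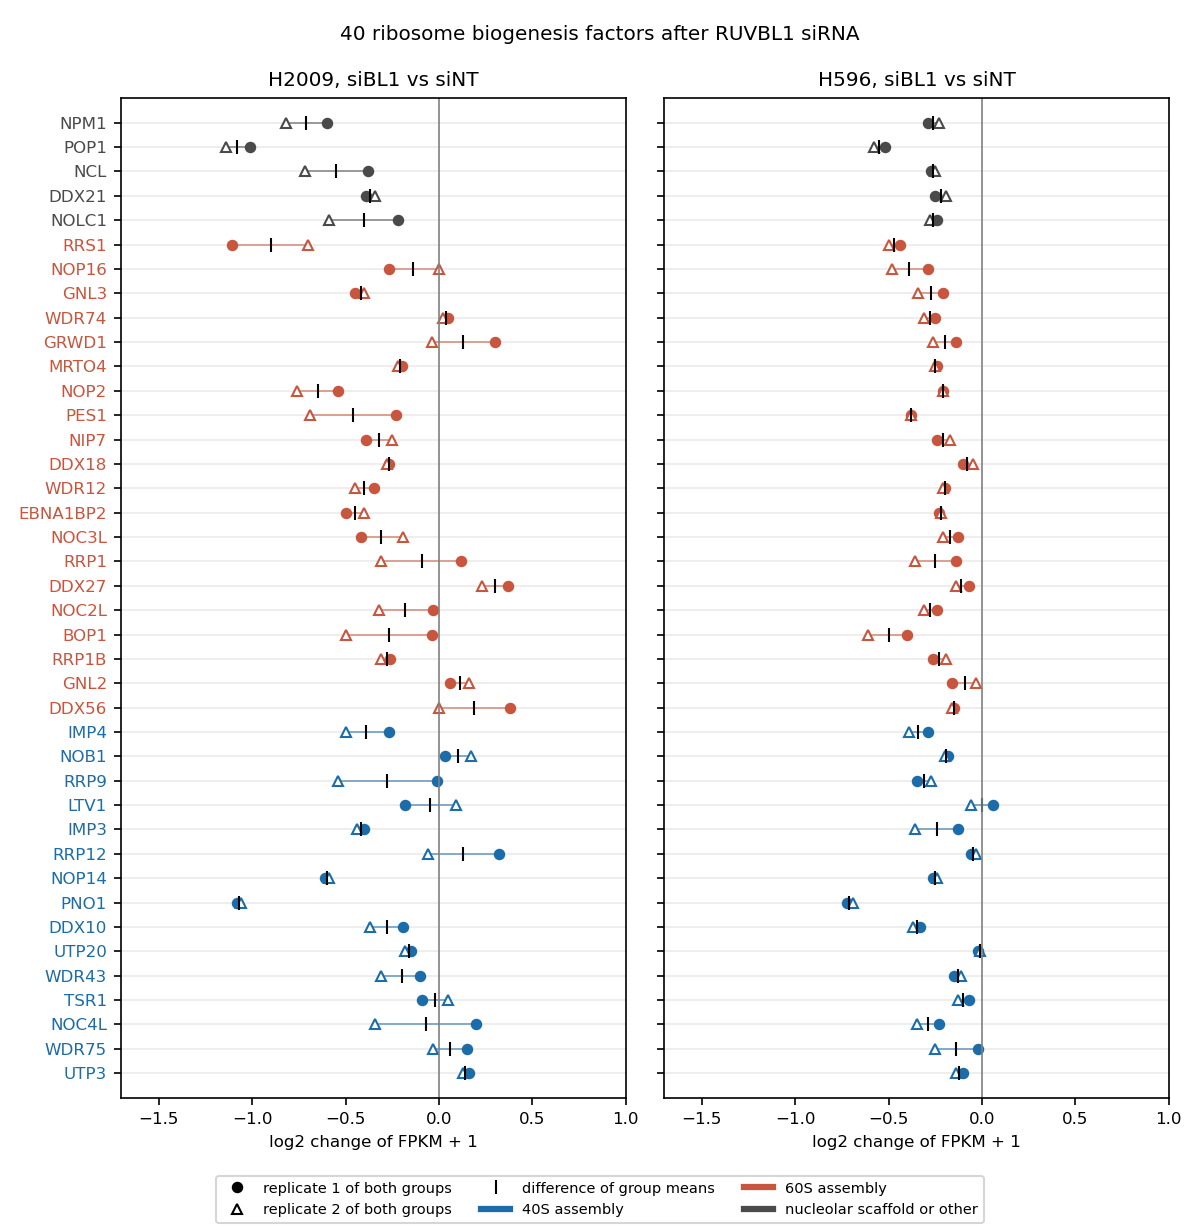
Log2 change of FPKM + 1 of each of the 40 genes with siBL1 against siNT, in H2009 (left) and H596 (right), in the same order, colours and symbols as in the plot for compound B. PNO1 and POP1 have the lowest ticks in both lines, at -1.07 and -1.08 in H2009 and -0.71 and -0.55 in H596; DDX27 is the highest in H2009.

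The siRNA changes were not tested between the lines; their tables may have been normalized separately and the knockdown times differ. Across the 40 genes the siBL1 changes in the lines correlated with r = 0.682, again a description. The siRNA and compound experiments share no libraries. Set side by side, 24 of the 40 genes were lower in both replicates in each of 4 comparisons, compound B and siBL1 in both lines, against 15.5% of the 10300 genes tested in all tables. The count was also 24 with replicate 1 alone for compound B in H596. NOP2 and POP1 lay below all of their control libraries in all 4. In the comparisons taken singly, 28.1% and 15.2% of all genes lay so with compound B in H2009 and H596. With siBL1 the shares were 18.9% and 8.64%. The share of all genes that lay so in all 4 together was not counted.

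The changes with compound B and with siBL1 were only partly alike across the 40 genes. Their Pearson r was 0.48 in H2009 and 0.387 in H596, the latter with untreated replicate 2 included. In H2009, 30 of the 40 were lower with both, 6 with compound B only and 1 with siBL1 only. NOB1, LTV1, RRP12, GRWD1, NOP16 and WDR74 had changes of -0.96, -0.90, -0.76, -0.68, -1.01 and -0.75 with compound B, and of 0.10, -0.05, 0.13, 0.13, -0.14 and 0.04 with siBL1. NOLC1 had 0.07 with compound B and -0.40 with siBL1, and PNO1 had -0.67 and -1.07. Times and controls differ between the experiments, so no test was made of these differences.

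**Figure D5:**
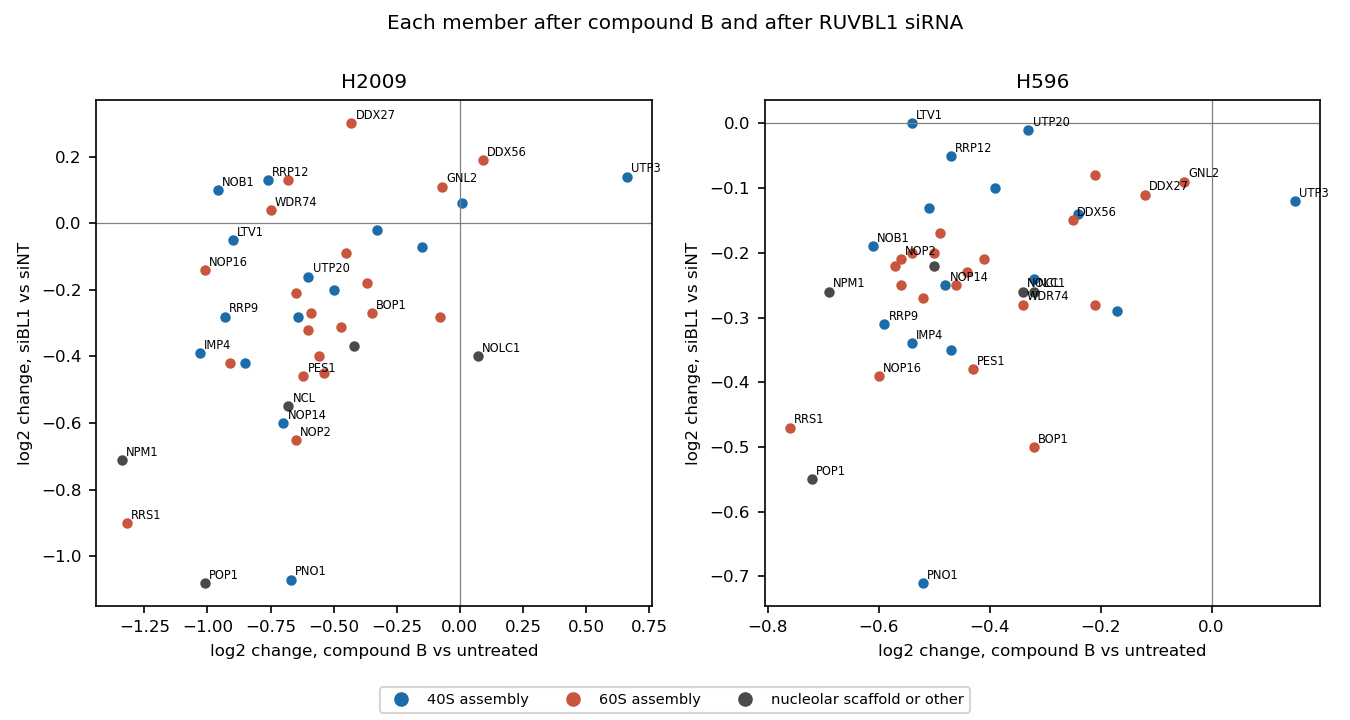
Log2 change with compound B (horizontal axis) against log2 change with siBL1 (vertical axis) for each of the 40 genes, in H2009 (left) and H596 (right), coloured by role; 22 genes are named. In H2009 30 genes lie in the lower left part of the plot, and NOB1 and WDR74 lie left of 0 on the compound axis but slightly above 0 on the siRNA axis.

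Other genes of the pathway gave similar medians with compound B in H2009. Of 42 further factors of small-subunit assembly, 3 fell and 0 rose with compound B in H2009, with a median of -0.52; the lowest were UTP18 (-1.81) and EMG1 (-1.76) and the highest was RRP7A (0.43). Of 47 further factors of large-subunit assembly, 5 fell and 0 rose, with a median of -0.46, from PAK1IP1 (-1.67) and PPAN (-1.17) to GNL1 (0.82). Of 24 proteins of the RNA exosome and of RNase MRP, the complex that holds POP1, 4 fell and 0 rose, with a median of -0.48; the lowest were RPP40 (-1.86), a subunit of RNase MRP, and EXOSC8 (-1.66). Of 13 snoRNP and snoRNP assembly proteins 1 fell, GAR1 (-1.22), and the median was -0.53. Over all genes 5.02% were called lower. With the replicate block 24, 23, 14 and 5 genes of these lists were called lower and 1, 2, 0 and 0 higher, where 19.5% and 18.8% of all genes were.

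In H596 with compound B the medians of the same lists were -0.23, -0.20, -0.20 and -0.23, with 0 called in any of them by limma; at an unadjusted p under 0.05, 3, 4, 1 and 0 were lower and 0 higher, where 2.54% and 3.21% of all genes were. The 40 genes had -0.47. Without untreated replicate 2 the lists had -0.03, -0.03, -0.10 and -0.02, and the 40 genes -0.24. With siBL1 the medians of these lists were -0.25, -0.13, -0.19 and -0.25 in H2009 and -0.16, -0.17, -0.15 and -0.10 in H596, beside -0.28 and -0.23 for the 40 genes; 0 were called without the block, and with it 15, 11, 10 and 4 were called lower and 1, 5, 2 and 1 higher in H2009, where 27.0% and 15.4% of all genes were, so that the large-subunit and snoRNP lists lay near the share of all genes called lower. In H596 25, 28, 16 and 6 were called lower and 0, 1, 0 and 1 higher, where 26.6% and 19.8% of all genes were. The lists were not tested against each other.

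Several of the genes share their position with other transcripts. In RefSeq, 5 of the 40 (WDR43, UTP20, TSR1, GNL3 and NCL) contain 14 small nucleolar RNA genes within their bounds, which the deposited gene values were not used to measure. WDR74 overlaps RNU2-2, a U2 small nuclear RNA gene, and NOP14 overlaps the antisense gene NOP14-AS1. Among other overlaps, GNL3 shares bases with the protein-coding gene GLT8D1, and NOB1 with NQO1-DT, a noncoding RNA gene. Protein-coding genes also overlap NOP16, TSR1, NOC2L, NOC3L, BOP1, EBNA1BP2, GNL2 and GRWD1. The library kit keeps strand, but whether the counting used it is not stated in the labels, so reads of such overlaps cannot be assigned with certainty.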

How the data were processed

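RNA of 20 libraries (2 per group, 10 groups) was analysed; 8 libraries of mutated cDNA were not used. Libraries were made with a stranded mRNA kit, per the labels' protocols. The authors deposited FPKM for each gene in 3 tables; CASAVA 1.8.2, TopHat2 2.0.12, Cufflinks 2.2.1 and the hg19 build were used, per the submitters' processing notes. Since separate normalization of the tables is possible, each test stays within 1 table, and 19 entries of the H2009 siRNA table whose names had become dates were left out. Depth is unknown.

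The test was limma (3.58.1, R 4.3.3) applied to log2(FPKM + 1), a scale that understates changes of low genes, with eBayes trend and Benjamini-Hochberg adjustment at 0.05. Genes needed a mean of 1 FPKM (for the compounds, in the 6 libraries of either line); 12781, 11223 and 12004 genes were tested for the compounds and the siRNA in H2009 and H596. For the compounds, 1 fit took all 12 libraries with 6 group means. SEs are from the fit without a block.

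Groups share replicate numbers whose meaning the labels do not give. The difference of replicate 2 from replicate 1 correlated between groups in all 45 pairs (r from 0.475 to 0.979 over 10300 genes), so a model with that number as a block is given beside the unpaired fit, the main one, where it changes a call. Each comparison has only 2 numbers, and the design does not establish a pairing. The alternatives were another pseudocount, no filter, quantile normalization, no trend, 2 kinds of block, the 6 libraries of a line alone, and each library left out. The fits were also run on simulated data with independent noise. Those data had no shared replicate effect, so that run cannot decide between the fits with and without a block. The members and gene lists were chosen with earlier results of these data known. Library values are printed for the 6 lowest and 2 highest of the 40 genes in each of 4 comparisons (compound B and siBL1 in each line), for NCL, NPM1 and NOP2, for RRP1 with RRP1B, and for the PeBoW proteins; PNO1, RRP9, GNL3 and NOLC1 in compound B were added after their values were seen.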

Additional observations from a re-analysis of the deposited data

Results flagged for a closer look

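For 6 of the 40 genes both replicates of siBL1 lay above siNT in H2009 and below it in H596. The same was true of 8.01% of the 10323 genes tested in both siRNA experiments, and 10.5% had the opposite pattern, which 0 of the 40 had. The change in H2009 minus that in H596, on the log2 scale, was 0.26 for UTP3, 0.29 for NOB1, 0.32 for WDR74, 0.40 for DDX27, 0.35 for DDX56 and 0.20 for GNL2. In DDX56 replicate 2 of H2009 the difference from siNT rounded to 0.00, and in GNL2 replicate 2 of H596 it was -0.03. The difference between the lines was not tested, since the tables are separate and the knockdown times differ.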

How the results depend on the processing

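With the replicate number as a block, members called lower were 17 (siBL1 in H2009), 32 (siBL1 in H596), 26 (compound B in H2009) and 22 (B against C in H2009); with quantile normalization added they were 12, 28, 23 and 17. All genes called with the block were 4758, 5574, 4897, 4998, 287 (compound B in H596), 198 (B against C in H596), 2 (compound C in H2009) and 1053 (the difference between lines); with quantile normalization added, 5768, 5369, 4965, 4910, 258, 187, 2 and 1306. With a replicate block within each line, members called lower were 28 and 27 in H2009 (B, B against C) and 10 and 1 in H596. Of all genes, 22.4%, 24.0%, 2.89% and 1.67% were called lower there. All genes called in either direction were 5696, 5829, 853, 595, 2 (compound C in H2009) and 1828 (between lines). Without a block these were 1455 (compound B in H2009), 1462 (B against C), 1 (compound C), 1 (B against C in H596) and 58 (between lines), and 0 elsewhere. On the 6 libraries of a line alone 0 members were called in H2009, and all genes called were 548 and 504 in H2009 (B, B against C) and 0 for B against C in H596. B against C in H596 also had 0 with pseudocount 0.1, no filter or no trend. The difference between lines had 12 with pseudocount 0.1, 102 with no filter, 110 with quantile normalization and 29 with no trend. Compound C in H2009 had 2 with pseudocount 0.1, and compound B in H596 had 6 with quantile normalization.

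Leaving out each library in turn gave 0 to 2 members called lower with compound B in H2009 and 0 to 4 for B against C, and, over all genes, 353 to 660 and 345 to 1634. The other ranges over all genes were 1 to 12 and 4 to 8 for siBL1 in H2009 and H596, 1 to 2 for compound C in H2009, 0 to 1 for compound B in H596, 0 to 0 for B against C in H596, and 8 to 31 between lines. An arm left with 1 library was assumed to vary like the other groups. Without untreated H596 replicate 2, NOP16 with compound B went to 0.00 (-1.20 without replicate 1) and the members' median with compound C to 0.02 (-0.40 without replicate 1). The median difference between lines went to -0.05 without untreated H596 replicate 1 and to 0.42 without replicate 2. With that replicate 2 left out and a replicate block within each line, an alternative chosen after seeing the data, compound B in H596 had 0 members called lower and 33 of all genes called, against 10 and 853 with it. The cause of these shifts was not tested. Depth is unknown, and 2 libraries per group limit every test.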
